A study of Mus musculus with 227 samples.

Results

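Genes that build, sulfate and remodel glycosaminoglycans were followed across single cells sorted from long bones, taken from BL6 mice 3 days after birth. The group holds 40 named genes, all found among the 24388 genes of the table, and covers the supply of sulfate and sugar precursors, the shared linkage, the chondroitin and dermatan branch, the heparan branch and hyaluronan. The members were taken from a list of gene names with no rule on their values, though earlier results of these data were known. The deposited cells are 37 mSSC, 26 CSP, 72 THY+ and 92 6C3+ cells. Every gate took AlphaV+ cells and left out those with CD45 or Ter-119. Beyond that, mSSC were CD200+ and carried neither CD105, 6C3, Thy nor Tie2, CSP were CD105+ without 6C3, Thy or Tie2, THY+ were CD105+ and Thy+ without 6C3 or Tie2, and 6C3+ were CD105+ and 6C3+ without Thy. The 6C3+ gate is the only one of the 4 that does not name Tie2. The series calls them skeletal stem, progenitor and stromal populations, with mSSC as the stem cell, and its title speaks of identifying and specifying that cell. The labels name 1 strain, 1 age and no treatment, and each cell was captured alone on a microfluidic chip and sequenced as its own library with spike-in RNA.

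Glycosaminoglycans are long sugar chains. Chondroitin, dermatan and heparan sulfate grow on core proteins from a common linkage that starts with xylose, and sulfotransferases in the Golgi then add sulfate from the donor PAPS. Cartilage matrix depends on the dense chondroitin sulfate chains of aggrecan, and inherited loss of sulfate uptake, PAPS synthesis or chondroitin sulfation causes disorders of skeletal growth. Heparan sulfate binds growth factors at the cell surface, and hyaluronan is an unsulfated chain made at the plasma membrane without a core protein.

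Each population counted as 1 sample, because no animal or culture is named, so no difference between populations has a replicate check, and p-values are not given. Detection means an FPKM of at least 1, where FPKM is the number of fragments per kilobase of a gene's transcript relative to all mapped fragments. The values below are from cells with at least 1000 detected genes, 37 mSSC, 11 CSP, 43 THY+ and 34 6C3+ cells, whose median gene numbers ran from 2534 in mSSC to 3033 in CSP. Shares of cells carry 95% intervals by the exact Clopper-Pearson method. They cover counting error alone, and depth in reads is unknown. The index names put mSSC and CSP in 1 set of index pairs and THY+ and 6C3+ each in another, and outside the comparison of CSP with mSSC population and index set cannot be told apart. The spike-in share of a cell's FPKM had medians of 20.8% for THY+ and 18.9% for 6C3+ cells against medians of 0.00117% in mSSC and 0.000945% in CSP cells, so differences are also given after rescaling the FPKM of the mouse genes to 1000000 per cell. Of 12 chondrocyte markers, the median cell held 12 in mSSC, 11 in CSP, 7 in 6C3+ and 4 in THY+. Cells that stood apart were 3 mSSC cells and 1 CSP cell with at most 4 chondrocyte markers, of which 1 mSSC cell held 10 of 11 pericyte and smooth muscle markers, and 13 THY+ cells and 1 6C3+ cell with more than 4 pericyte markers. Endothelial, myeloid and erythroid markers were detected at most 2 per cell.

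Detection differed widely among the 40 genes. Chsy1, a chondroitin synthase, was the member found in most mSSC and THY+ cells, with 30 of 37 and 37 of 43. In CSP cells Papss2, Slc35b2 and Ugdh shared the lead with 10 of 11 each, and in 6C3+ cells it was Sulf2 with 29 of 34. Chst13, a chondroitin 4-O-sulfotransferase, was detected in no cell of any population. The filter on low values kept 32 of 40 members, those with a mean share over the 4 populations of at least 10%. The 8 others were Xylt2, B3galt6, Chst7, Chst13, Extl1, Ndst2, Hs6st1 and Hs6st2.

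**Figure D1:**
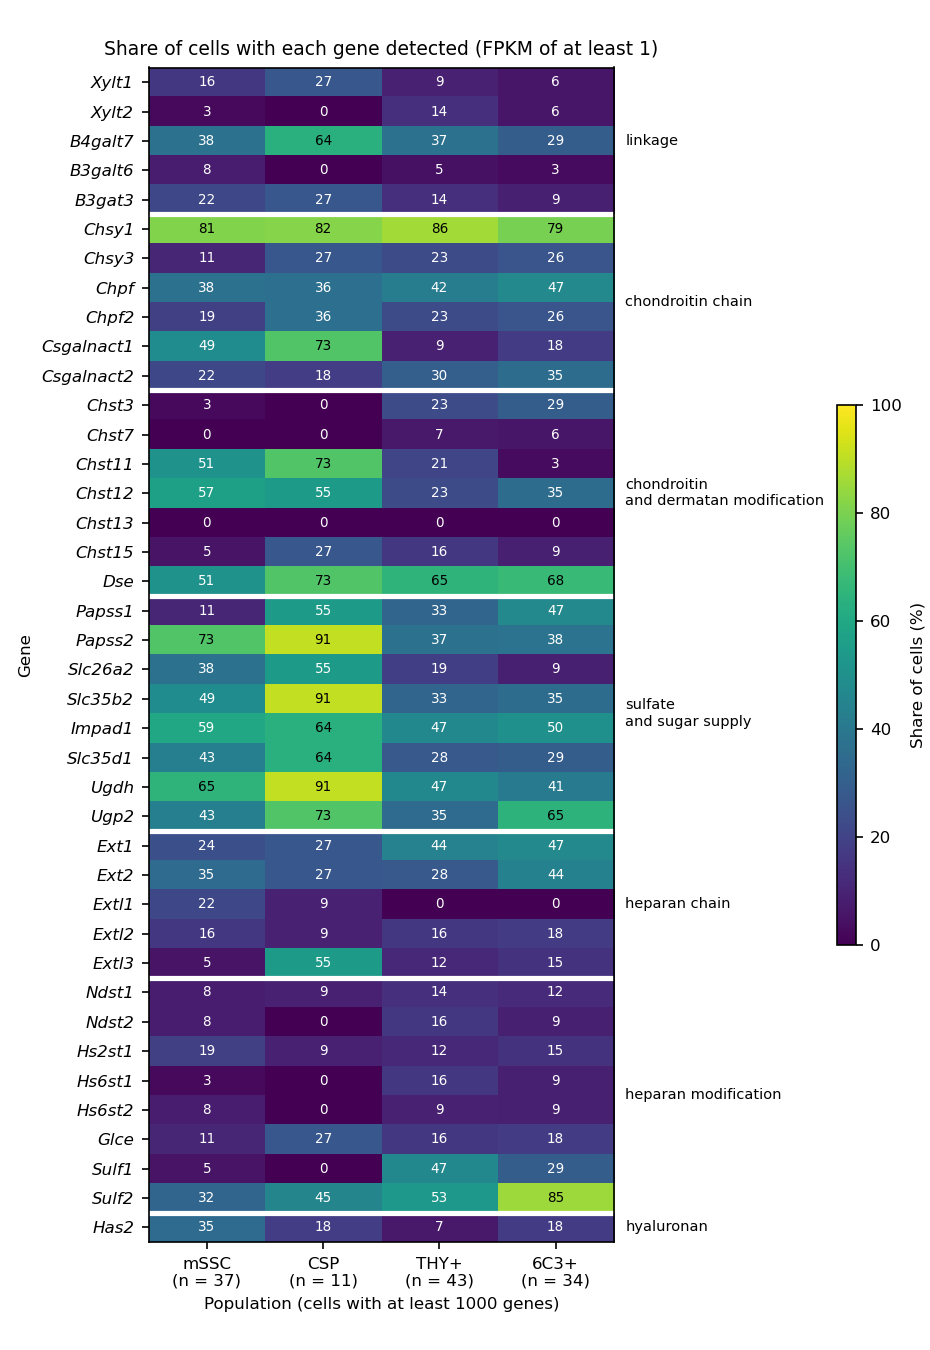
Percentage of cells with each of the 40 genes at FPKM of at least 1 (colour and number, rounded to whole percent) in the 4 populations, limited to cells with at least 1000 genes. Genes are grouped by role. Supply genes are brightest in CSP, Sulf2 is brightest in 6C3+ cells (29 of 34), and most heparan modification genes are dark throughout.

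Most genes that supply sulfate and sugar nucleotides were higher in CSP than in mSSC cells with at least 1000 genes, and Papss2, Slc26a2, Slc35d1 and Ugdh were lower in both stromal populations than in mSSC. A difference of mean log2(FPKM + 1) of at least 1 is used as the size rule throughout. By it 7 of 8 supply genes were higher in CSP than in mSSC and none lower, where 15.7% of all 7867 genes that passed the filter were higher and 10.5% lower. Against mSSC, 5 of 8 were lower in THY+ cells (all genes 10.6% lower and 10.7% higher) and 5 of 8 lower and 1 higher in 6C3+ cells (all genes 14.8% lower and 4.89% higher). The medians over the 8 genes were 1.53 for CSP, -1.28 for THY+ and -1.44 for 6C3+ cells minus mSSC, beside 0.05, 0.10 and -0.13 over all genes. These 3 comparisons share the mSSC cells. Of 26 CSP cells, 15 held under 1000 genes and are not in these values. With them added, 6 of the 7 supply genes lay below mSSC, from -0.25 for Slc35b2 to -2.02 for Ugdh, and Papss1 was the exception.

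Papss2 and Papss1 encode the synthases of PAPS, the sulfate donor. Papss2 was detected in 27 of 37 mSSC cells (73%, interval 55.9 to 86.2), 10 of 11 CSP cells (90.9%, interval 58.7 to 99.8), 16 of 43 THY+ cells (37.2%, interval 23 to 53.3) and 13 of 34 6C3+ cells (38.2%, interval 22.2 to 56.4). Its FPKM ran from 0 to 1210.3 in mSSC (median 27.2), from 0 to 1719 in CSP (median 116.5), from 0 to 606.1 in THY+ (median 0) and from 0 to 376.2 in 6C3+ cells (median 0). Cells of all populations overlapped in level, while the intervals of the THY+ share lay below those of mSSC and CSP, and that of 6C3+ lay below CSP alone. The mean log2 level was 4.87 ± 3.66 (SD over cells) in mSSC and differed by 1.89 in CSP, -3.06 in THY+ and -2.71 in 6C3+ cells. In cells matched on detected genes, between 2221 and 3386, the CSP difference was 0.86, under the size rule. Papss1 showed another order, with 4 of 37 mSSC cells (10.8%, interval 3.03 to 25.4), 6 of 11 CSP cells (54.5%, interval 23.4 to 83.3), 14 of 43 THY+ cells (32.6%, interval 19.1 to 48.5) and 16 of 34 6C3+ cells (47.1%, interval 29.8 to 64.9). Of these shares only those of mSSC and 6C3+ had intervals that did not overlap. Its mean log2 difference from mSSC was 1.92 in CSP, 0.64 in THY+ and 1.26 in 6C3+ cells. The 6C3+ value was -0.15 with all cells and -0.67 as log2 of the mean FPKM.

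Counted cell by cell, Papss1 was found without Papss2 in the stromal populations but not in the others. No mSSC or CSP cell had Papss1 alone, against 8 of 43 THY+ and 8 of 34 6C3+ cells. Only 4 mSSC cells held Papss1 at all and only 1 CSP cell lacked Papss2, so few of these cells could show Papss1 alone. Papss2 alone was seen in 23 of 37 mSSC, 4 of 11 CSP, 10 of 43 THY+ and 5 of 34 6C3+ cells. Both genes were found together in 4, 6, 6 and 8 cells in the same order. A gene listed at 0 in a single cell is not shown to be absent from it.

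Slc35b2, the Golgi transporter that brings PAPS to the sulfotransferases, had the highest CSP difference of all members. It was detected in 18 of 37 mSSC cells (48.6%, interval 31.9 to 65.6), 10 of 11 CSP cells (90.9%, interval 58.7 to 99.8), 14 of 43 THY+ cells (32.6%, interval 19.1 to 48.5) and 12 of 34 6C3+ cells (35.3%, interval 19.7 to 53.5). Its median FPKM was 54.5 in CSP and 0 in each of the others, where single cells still reached 880.5 (mSSC), 1377 (THY+) and 427.02 (6C3+). CSP differed from mSSC by 3.12, and by 3.71 after rescaling. The interval of its CSP share lay above those of THY+ and 6C3+ but overlapped that of mSSC.

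Ugdh, which makes UDP-glucuronic acid, a building block of all these chains, was detected in 24 of 37 mSSC cells (64.9%, interval 47.5 to 79.8), 10 of 11 CSP cells (90.9%, interval 58.7 to 99.8), 20 of 43 THY+ cells (46.5%, interval 31.2 to 62.3) and 14 of 34 6C3+ cells (41.2%, interval 24.6 to 59.3). Its median FPKM was 61.2 in mSSC, 209.6 in CSP, 0.842 in THY+ and 0 in 6C3+ cells. The differences from mSSC were 1.57, -2.29 and -2.84 in CSP, THY+ and 6C3+ cells. Among the cells with spike-ins at no more than 20% of FPKM the THY+ difference was -0.4, so that call ended there. Ugp2, which makes UDP-glucose upstream of Ugdh, was found in 16 of 37 mSSC cells, 8 of 11 CSP cells, 15 of 43 THY+ cells and 22 of 34 6C3+ cells. It was -1.5 against mSSC in THY+ cells, and -0.14 in 6C3+ cells, which became 1.02 after rescaling. Ugp2 in 6C3+ minus THY+ cells was 1.36, but 0.09 with all cells, 0.65 with a pseudocount of 10 and 0.98 as log2 of the mean FPKM. Only 2.03% of all genes were higher and 11.1% lower by the size rule in that last comparison, and 9.55% and 5.45% after rescaling, where Ugp2 differed by 2.32.

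Slc26a2 carries sulfate into the cell, and Slc35d1 carries UDP-sugars into the endoplasmic reticulum for chondroitin synthesis. Slc26a2 was detected in 14 of 37 mSSC cells, 6 of 11 CSP cells, 8 of 43 THY+ cells and 3 of 34 6C3+ cells, and Slc35d1 in 16 of 37 mSSC cells, 7 of 11 CSP cells, 12 of 43 THY+ cells and 10 of 34 6C3+ cells. Both were highest in CSP (1.12 and 1.16 against mSSC) and lower than mSSC in 6C3+ cells (-1.76 and -2.14). In THY+ cells Slc35d1 differed by -1.82 and Slc26a2 by -1.05. The Slc26a2 value was -0.98 after rescaling and -0.6 without the 13 THY+ cells rich in pericyte markers. Among cells with spike-ins at no more than 20% of FPKM the THY+ differences were -0.26 for Slc26a2 and -0.77 for Slc35d1, both under the size rule. Impad1, a phosphatase that clears the by-product of PAPS use, was found in 22 of 37 mSSC cells, 7 of 11 CSP cells, 20 of 43 THY+ cells and 17 of 34 6C3+ cells. Its largest difference was -1.11 in 6C3+ cells against mSSC, which was -0.37 after rescaling.

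**Figure D2:**
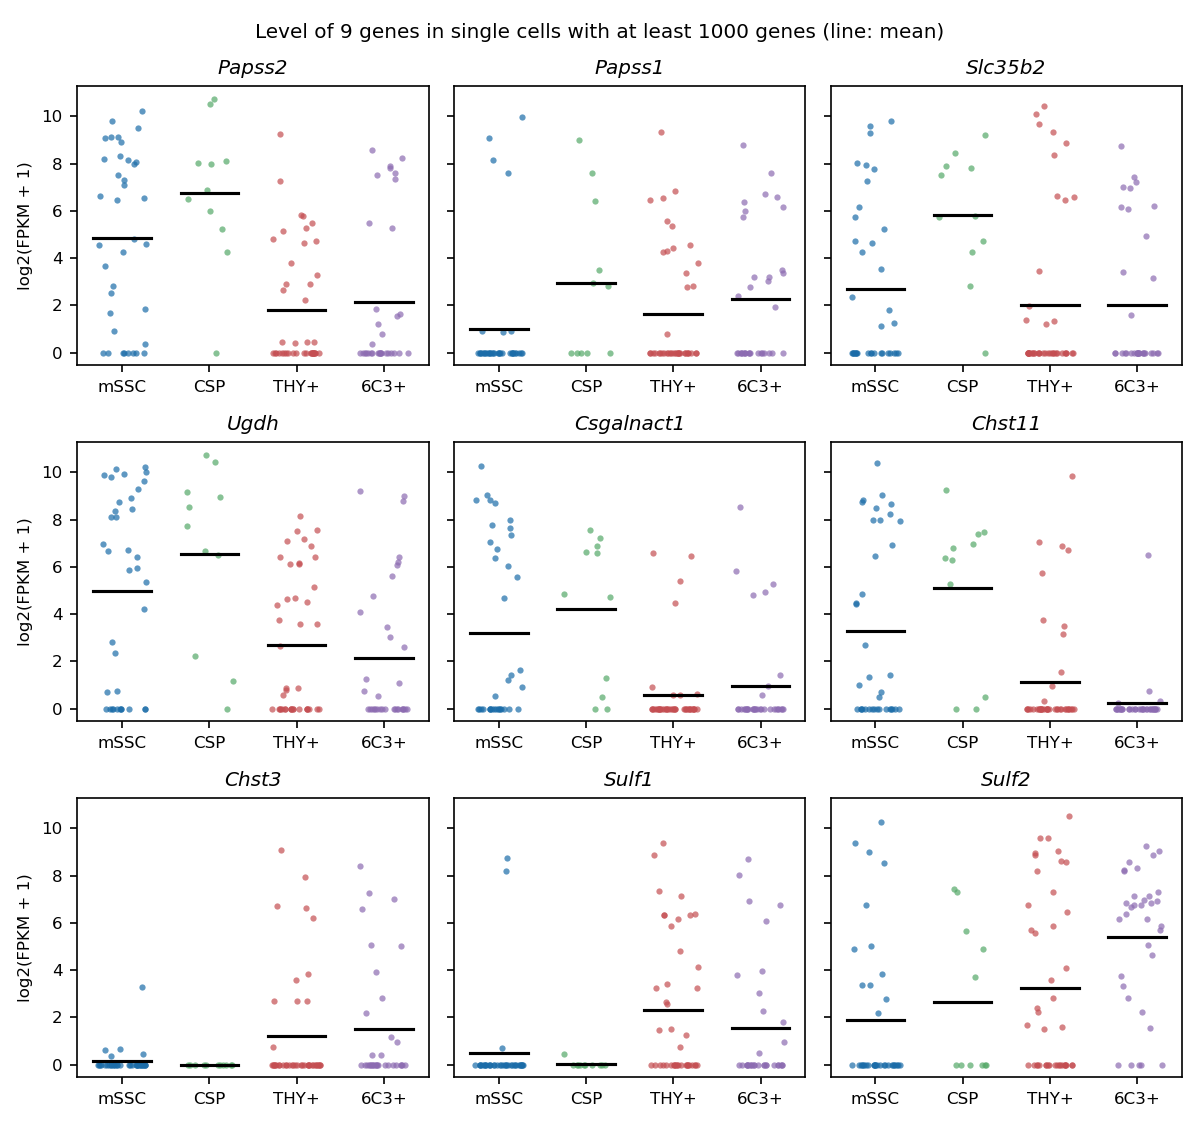
Level of 9 genes, as log2(FPKM + 1), in each cell with at least 1000 genes (points, spread sideways for sight) of the 4 populations, with the mean as a line. Papss2, Ugdh and Chst11 have their highest means in CSP and lower means in THY+ and 6C3+ than in mSSC cells, while Sulf2 is highest in 6C3+ cells, with a mean of 5.40.

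The sequence upstream of the start sites is shown for 4 supply genes because Papss2, Ugdh and Slc35d1 were lower in both stromal populations while Papss1 was not. RefSeq start sites on GRCm38.p6 were matched for 30 of 40 members. The last 100 bases before the start are given 5′ to 3′ on the gene's strand, with the letters GGGCGG, the GC box bound by SP-type factors, or its reverse complement in capitals.
Papss2, first start (chr19:32595615-32595714, plus strand): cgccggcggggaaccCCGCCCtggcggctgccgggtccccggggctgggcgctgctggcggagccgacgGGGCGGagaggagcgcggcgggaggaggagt
Papss2, second start (chr19:32619905-32620004, plus strand): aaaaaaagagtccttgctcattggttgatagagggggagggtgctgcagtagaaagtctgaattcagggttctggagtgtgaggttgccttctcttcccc
Papss1, first start (chr3:131564668-131564767, plus strand): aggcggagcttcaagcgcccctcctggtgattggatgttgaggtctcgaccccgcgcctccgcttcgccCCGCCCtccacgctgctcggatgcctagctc
Ugdh (chr5:65435843-65435942, minus strand): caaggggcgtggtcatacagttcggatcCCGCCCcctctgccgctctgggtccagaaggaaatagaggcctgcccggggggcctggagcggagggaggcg
Slc35d1 (chr4:103215177-103215276, minus strand): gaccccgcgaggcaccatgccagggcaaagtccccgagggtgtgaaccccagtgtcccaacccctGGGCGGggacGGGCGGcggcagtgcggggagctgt
The 2 Papss2 starts differ in composition. Over the 250 bases before each, the first held 24 CpG dinucleotides at 67.6% GC and the second 1 at 43.2%. The 2 Papss1 starts differ too, with 20 at 65.2% for the first and 5 at 48.8% for the second, which is not printed. The table holds 1 value per gene, so the use of each start was not measured. Over all member starts the medians were 20 CpG dinucleotides and 64% GC, against 6 and 52.4% over 32851 starts of all genes. On either strand GGGCGG lay before 24 of 39 member starts (61.5%) and 32.7% of all starts. Of the letters ACAAAG and ACAATG, which SOX proteins can bind, each lay before 1 member start (2.56%), Chst3 for the first and Xylt2 for the second, and before 16.5% and 10.7% of all starts. A match is a description of the letters in this window.

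Among the enzymes that start every sulfated chain, B4galt7, which adds the first galactose, was the most often detected and was highest in CSP. It was found in 14 of 37 mSSC cells (37.8%, interval 22.5 to 55.2), 7 of 11 CSP cells (63.6%, interval 30.8 to 89.1), 16 of 43 THY+ cells (37.2%, interval 23 to 53.3) and 10 of 34 6C3+ cells (29.4%, interval 15.1 to 47.5), and all 4 intervals overlap. Its median FPKM was 57.7 in CSP and 0 elsewhere, and CSP differed from mSSC by 2.0, or by -0.43 with all cells. The difference was -1.07 in 6C3+ against THY+ cells, but -0.64 after rescaling. Xylt1, a xylosyltransferase of the first step, was found in 6 of 37 mSSC cells, 3 of 11 CSP cells, 4 of 43 THY+ cells and 2 of 34 6C3+ cells. Xylt2, its paralogue, was found in 1 of 37 mSSC cells, 0 of 11 CSP cells, 6 of 43 THY+ cells and 2 of 34 6C3+ cells. B3gat3, the glucuronosyltransferase that completes the linkage, was detected in 8 of 37 mSSC cells, 3 of 11 CSP cells, 6 of 43 THY+ cells and 3 of 34 6C3+ cells, and B3galt6, which adds the second galactose, in 3 of 37 mSSC cells, 0 of 11 CSP cells, 2 of 43 THY+ cells and 1 of 34 6C3+ cells. On the deposited scale no other linkage gene passed the size rule, and after rescaling Xylt1 did in CSP (1.11 against mSSC).

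In the chondroitin chain branch Csgalnact1, which starts the chain on the linkage, was the gene that set the populations apart. It was detected in 18 of 37 mSSC cells (48.6%, interval 31.9 to 65.6), 8 of 11 CSP cells (72.7%, interval 39 to 94), 4 of 43 THY+ cells (9.30%, interval 2.59 to 22.1) and 6 of 34 6C3+ cells (17.6%, interval 6.76 to 34.5). The THY+ interval lay below those of mSSC and CSP, and the 6C3+ interval lay below that of CSP. FPKM reached 1223 in mSSC (median 0.865), 189.9 in CSP (median 28), 95.9 in THY+ and 368.9 in 6C3+ cells, both with a median of 0. The differences from mSSC were -2.61 in THY+ and -2.25 in 6C3+ cells. In CSP it was 1.0, at the edge of the size rule, it was 0.9 in cells with at least 2000 genes, and it changed sign with all cells (-1.12) and as log2 of the mean FPKM (-0.88). Csgalnact2, with the same activity, was found in 8 of 37 mSSC cells, 2 of 11 CSP cells, 13 of 43 THY+ cells and 12 of 34 6C3+ cells, with no deposited-scale difference at the size rule and 1.15 in 6C3+ against mSSC cells after rescaling.

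Cell by cell, Csgalnact1 without Csgalnact2 was seen in 14 of 37 mSSC and 7 of 11 CSP cells, but in 3 of 43 THY+ and 3 of 34 6C3+ cells. Csgalnact2 without Csgalnact1 was seen in 4, 1, 12 and 9 of the same cells. The elongating synthase Chsy1 was found in most cells of every population, 30 of 37 mSSC cells (81.1%, interval 64.8 to 92), 9 of 11 CSP cells (81.8%, interval 48.2 to 97.7), 37 of 43 THY+ cells (86%, interval 72.1 to 94.7) and 27 of 34 6C3+ cells (79.4%, interval 62.1 to 91.3), with median FPKM of 282.7, 144.02, 186.1 and 78.8. Its 6C3+ difference was -1.31 against mSSC and -1.25 against THY+, and -0.1 and -0.37 after rescaling, so both calls ended there. Chsy3, a second synthase, was found in 4 of 37 mSSC cells, 3 of 11 CSP cells, 10 of 43 THY+ cells and 9 of 34 6C3+ cells. The polymerizing factors Chpf and Chpf2 were detected in 36.4% of CSP to 47.1% of 6C3+ cells and in 18.9% of mSSC to 36.4% of CSP cells, with no difference that reached the size rule.

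Among the chondroitin sulfotransferases, Chst11 and Chst12, which add sulfate at the 4-O position of the galactosamine, were lower in both stromal populations than in mSSC, while Chst3, which adds it at the 6-O position, was higher. Chst11 was detected in 19 of 37 mSSC cells (51.4%, interval 34.4 to 68.1), 8 of 11 CSP cells (72.7%, interval 39 to 94), 9 of 43 THY+ cells (20.9%, interval 10.0 to 36) and 1 of 34 6C3+ cells (2.94%, interval 0.0744 to 15.3). The 6C3+ interval lay below those of mSSC and CSP, and the THY+ interval below that of CSP. Median FPKM was 1.03 in mSSC and 82.1 in CSP and 0 in THY+ and 6C3+ cells, though a THY+ cell reached 929.9. The differences from mSSC were 1.85 in CSP, -2.12 in THY+ and -3.05 in 6C3+ cells. The CSP value changed sign with all cells (-0.88) and as log2 of the mean FPKM (-0.06). Chst11 lies at chr10:82985498-83195900 on the plus strand of mm10.

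Chst12 was found in 21 of 37 mSSC cells (56.8%, interval 39.5 to 72.9), 6 of 11 CSP cells (54.5%, interval 23.4 to 83.3), 10 of 43 THY+ cells (23.3%, interval 11.8 to 38.6) and 12 of 34 6C3+ cells (35.3%, interval 19.7 to 53.5). It differed from mSSC by -2.95 in THY+ and -2.59 in 6C3+ cells, and by -0.13 in CSP, where Chst11 but not Chst12 passed the size rule. Chst3 showed the opposite order, with 1 of 37 mSSC cells (2.70%, interval 0.0684 to 14.2), 0 of 11 CSP cells (0%, interval 0 to 28.5), 10 of 43 THY+ cells (23.3%, interval 11.8 to 38.6) and 10 of 34 6C3+ cells (29.4%, interval 15.1 to 47.5). The single mSSC cell held 8.75 FPKM, against highest values of 538.2 in THY+ and 335.9 in 6C3+ cells. The differences from mSSC were 1.08 in THY+ and 1.36 in 6C3+ cells. The THY+ value was 0.98 outside the first index row and 0.8 in cells matched on detected genes, both under the size rule. It passed the rule in 7 of 13 alternative settings, with a lowest value of 0.54. The 6C3+ value passed in 9 of 11, with a lowest value of 0.46. Cells with Chst3 but no Chst11 numbered 9 of 34 in 6C3+, 6 of 43 in THY+, 1 of 37 in mSSC and 0 of 11 in CSP. Both were found together in 4 THY+ cells and 1 6C3+ cell, and in none of the mSSC and CSP cells.

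Chst7, another 6-O-sulfotransferase, was detected in 3 of 43 THY+ and 2 of 34 6C3+ cells and in no mSSC or CSP cell, where the intervals reach 9.49% and 28.5%. Chst15, which sulfates units that already carry 4-O-sulfate, was found in 2 of 37 mSSC cells, 3 of 11 CSP cells, 7 of 43 THY+ cells and 3 of 34 6C3+ cells, with a CSP difference of 1.38 that rests on those 3 CSP cells. Dse, the epimerase that turns chondroitin into dermatan, was common everywhere, in 19 of 37 mSSC cells, 8 of 11 CSP cells, 28 of 43 THY+ cells and 23 of 34 6C3+ cells. Its CSP difference from mSSC was 1.14, but -1.3 with all cells and -0.47 as log2 of the mean FPKM, and its stromal differences stayed under the size rule at 0.85 and 0.54. After rescaling the 6C3+ value was 1.59.

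Of the 5 heparan chain genes, Extl3 was higher in CSP than in mSSC, and no other that passed the filter met the size rule on the deposited scale. Ext1 and Ext2, the copolymerase of the chain, were found in 9 of 37 mSSC cells, 3 of 11 CSP cells, 19 of 43 THY+ cells and 16 of 34 6C3+ cells for Ext1 and 13 of 37 mSSC cells, 3 of 11 CSP cells, 12 of 43 THY+ cells and 15 of 34 6C3+ cells for Ext2. No difference of either reached the size rule on the deposited scale, and after rescaling Ext1 was 1.5 in 6C3+ against mSSC and Ext2 1.19 in 6C3+ against THY+ cells. Extl3, which starts the heparan chain on the linkage, was detected in 2 of 37 mSSC cells (5.41%, interval 0.661 to 18.2), 6 of 11 CSP cells (54.5%, interval 23.4 to 83.3), 5 of 43 THY+ cells (11.6%, interval 3.89 to 25.1) and 5 of 34 6C3+ cells (14.7%, interval 4.95 to 31.1). The CSP interval lay above that of mSSC alone. For the other members the CSP and mSSC intervals overlapped, and the share of all genes without overlap was not computed. Its levels were low, with a median of 3.91 FPKM in the CSP cells that had it. The difference was 1.13, and 0.76 without the cells that went against their markers. Over 11 alternative settings it ran from 0.0014 to 2.68 and passed the size rule in 7. Extl1, a related glycosyltransferase, was found in 8 of 37 mSSC cells (21.6%, interval 9.83 to 38.2) and 1 of 11 CSP cells (9.09%, interval 0.230 to 41.3) and in no THY+ or 6C3+ cell. It did not pass the filter, and its differences from mSSC were -1.23 in THY+ and -1.25 in 6C3+ cells. Extl2 was found in 9.09% of CSP to 17.6% of 6C3+ cells.

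Sulf1 and Sulf2, secreted enzymes that take 6-O-sulfate off finished heparan chains outside the cell, were the heparan genes higher in the stromal populations. Sulf2 was detected in 12 of 37 mSSC cells (32.4%, interval 18 to 49.8), 5 of 11 CSP cells (45.5%, interval 16.7 to 76.6), 23 of 43 THY+ cells (53.5%, interval 37.7 to 68.8) and 29 of 34 6C3+ cells (85.3%, interval 68.9 to 95). The 6C3+ interval lay above those of mSSC and THY+ and overlapped that of CSP. FPKM of Sulf2 reached 1221 in mSSC (median 0), 173.2 in CSP (median 0), 1457 in THY+ (median 2.04) and 618.2 in 6C3+ cells (median 92.1). All populations held cells at 0, and the single highest cells were THY+ and mSSC cells. The mean log2 levels were 1.88 ± 3.17, 2.63 ± 3.19, 3.25 ± 3.76 and 5.40 ± 2.94 (SD over cells). The 6C3+ difference was 3.52 against mSSC and 2.15 against THY+, and the THY+ difference was 1.37 against mSSC. That THY+ value was 0.34 with all cells, 0.8 with a pseudocount of 10, 0.87 outside the first index row and 0.83 as log2 of the mean FPKM, all under the size rule. As log2 of the mean FPKM, in which a few high cells weigh most, 6C3+ minus THY+ was -0.1 and 6C3+ minus mSSC 0.73. Among cells with spike-ins at no more than 20% of FPKM, 6C3+ minus THY+ was 0.63. In the cells that held Sulf2 its median FPKM was 30.2 in mSSC, 49 in CSP, 87.3 in THY+ and 107.01 in 6C3+ cells. Sulf2 lies at chr2:166073089-166155663 on the minus strand of mm10.

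Sulf1 was most frequent in THY+ cells, with 2 of 37 mSSC cells (5.41%, interval 0.661 to 18.2), 0 of 11 CSP cells (0%, interval 0 to 28.5), 20 of 43 THY+ cells (46.5%, interval 31.2 to 62.3) and 10 of 34 6C3+ cells (29.4%, interval 15.1 to 47.5). The THY+ interval lay above those of mSSC and CSP, and that of 6C3+ overlapped all others. The 2 mSSC cells had high values (median 361.2 FPKM), above the median of the positive THY+ cells (42.1). The differences from mSSC were 1.83 in THY+ and 1.08 in 6C3+ cells, and the latter was 0.51 in cells matched on detected genes. Without the cells that went against their markers the values were 1.3 and 0.87. In 6C3+ cells Sulf2 alone was the usual state (20 of 34, with 9 holding both and 1 Sulf1 alone), while THY+ cells were spread over both (11 of 43), Sulf1 alone (9), Sulf2 alone (12) and neither (11).

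The enzymes that place sulfate on heparan were rare in these cells, and none of their differences reached the size rule. Ndst1, an N-deacetylase and N-sulfotransferase, was detected in 3 of 37 mSSC cells, 1 of 11 CSP cells, 6 of 43 THY+ cells and 4 of 34 6C3+ cells, and Ndst2 in 3 of 37 mSSC cells, 0 of 11 CSP cells, 7 of 43 THY+ cells and 3 of 34 6C3+ cells. The 2-O-sulfotransferase gene Hs2st1 was found in 7 of 37 mSSC cells, 1 of 11 CSP cells, 5 of 43 THY+ cells and 5 of 34 6C3+ cells. The 6-O-sulfotransferase gene Hs6st1 was found in 1 of 37 mSSC cells, 0 of 11 CSP cells, 7 of 43 THY+ cells and 3 of 34 6C3+ cells, and Hs6st2 in 3 of 37 mSSC cells, 0 of 11 CSP cells, 4 of 43 THY+ cells and 3 of 34 6C3+ cells. Glce, the epimerase of the heparan chain, was found in 4 of 37 mSSC cells, 3 of 11 CSP cells, 7 of 43 THY+ cells and 6 of 34 6C3+ cells. For CSP, 0 of 11 cells still allows a share of up to 28.5% of cells with the gene detected.

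Has2, the hyaluronan synthase of limb mesenchyme, was the only member of the hyaluronan branch and, at FPKM of at least 1, was most frequent in mSSC cells. It was detected in 13 of 37 mSSC cells (35.1%, interval 20.2 to 52.5), 2 of 11 CSP cells (18.2%, interval 2.28 to 51.8), 3 of 43 THY+ cells (6.98%, interval 1.46 to 19.1) and 6 of 34 6C3+ cells (17.6%, interval 6.76 to 34.5). The mSSC interval lay above that of THY+ alone. Its levels were low, with a highest value of 62.3 FPKM in mSSC. A further 2 mSSC, 1 CSP, 5 THY+ and 7 6C3+ cells held Has2 above 0 but under 1 FPKM. The differences from mSSC were -0.45 in CSP, -0.9 in THY+ and -0.55 in 6C3+ cells, all under the size rule. After rescaling they were -0.32, -0.94 and -0.08.

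Of the 32 members that passed the filter, 13 were higher and 0 lower in CSP than in mSSC by the size rule (40.6% higher, beside 15.7% of all genes), with a median of 0.69 against 0.05 over all genes. These were 7 supply genes, B4galt7, Csgalnact1, Chst11, Chst15, Dse and Extl3. After rescaling 14 were higher and 0 lower, beside 21.3% and 8.61% of all genes. The 2 populations share an index set, and CSP cells held more detected genes. In cells matched on gene number, 5 of them CSP, 11 members were higher and 2 lower, with a median of 0.16 beside 0.05 over all genes. When the 15 CSP cells under 1000 genes were added, 0 members were higher and 11 lower, with a median of -0.87 for members and for all genes alike. As log2 of the mean FPKM, 6 were higher and 10 lower, with a median of -0.13 beside -0.71 over all genes. The shares of all genes in these alternative settings are not given here, so their counts are not read as particular to the members. Prehypertrophic chondrocyte markers moved with this comparison: the median CSP cell held 4 of 4 (summed FPKM 18.2 to 10815) and the median mSSC cell 0 (0 to 2326). Their part in the result was not tested.

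Against mSSC the stromal populations differed in both directions. In THY+ cells 8 members were lower (Papss2, Chst12, Csgalnact1, Ugdh, Chst11, Slc35d1, Ugp2 and Slc26a2) and 3 higher (Sulf1, Sulf2 and Chst3), or 25% and 9.38% beside 10.6% and 10.7% of all genes. In 6C3+ cells 9 were lower (the first 6 of those, Slc26a2, Chsy1 and Impad1) and 4 higher (Sulf2, Chst3, Papss1 and Sulf1), or 28.1% and 12.5% beside 14.8% and 4.89%. The filter itself used the shares of these populations. Chst3 and Sulf1 passed it through their THY+ and 6C3+ cells, with shares of 2.70% and 5.41% in mSSC and 0% in CSP. Extl1, lower in both (-1.23 and -1.25), did not pass and is not counted. Rescaling moved the median of all genes upward in 6C3+ cells, from -0.13 to 0.24, with 16.1% of all genes higher and 6.61% lower. On that scale 7 members were lower and 8 higher in 6C3+ and 7 lower and 3 higher in THY+ cells, where 9.32% and 14.1% of all genes were. The median over members was -0.01 in THY+ and -0.23 in 6C3+ cells, beside 0.10 and -0.13 over all genes. As log2 of the mean FPKM it was -1.0 and -1.61 beside 0.07 and -1.11, and with all cells -0.96 and -1.56 beside -0.56 and -1.03. Chondrocyte markers were lower in the same comparisons, 12 of 12 in THY+ and 12 of 12 in 6C3+ cells by the size rule. The summed FPKM of these markers ran from 0.789 to 223492 in mSSC, from 0 to 45642 in THY+ and from 1.39 to 48424 in 6C3+ cells, where Matn1 alone was in no cell. Of 6 fibroblast and bone collagen markers, 5 were higher in THY+ and 5 in 6C3+ cells (Col1a1, Col1a2, Col3a1, Postn and Pdgfra), and Lum was lower in both, though not in 6C3+ cells after rescaling. Their summed FPKM ran from 273.5 to 82431 in mSSC, from 234.7 to 179183 in THY+ and from 113.8 to 86999 in 6C3+ cells. Of 11 pericyte and smooth muscle markers, 5 were higher in THY+ and 1 in 6C3+ cells. Without the cells that went against their markers, 9 members were lower and 4 higher in THY+, and 10 lower and 3 higher in 6C3+ cells. The medians over members were then -0.38 in THY+ and -0.33 in 6C3+ cells, beside 0.03 and -0.13 over all genes. The shares of all genes in that setting are not given here. The part of the chondrocyte and fibroblast lists in the result was not tested.

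Between the stromal populations themselves few members differed. In 6C3+ minus THY+ cells 2 of 32 were higher (Sulf2 and Ugp2) and 2 lower (Chsy1 and B4galt7), 6.25% in each direction beside 2.03% and 11.1% of all genes. After rescaling 4 were higher (Sulf2, Ugp2, Papss1 and Ext2) and 1 lower (Chst11), beside 9.55% and 5.45%. The plot of differences shows both scales side by side.

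**Figure D3:**
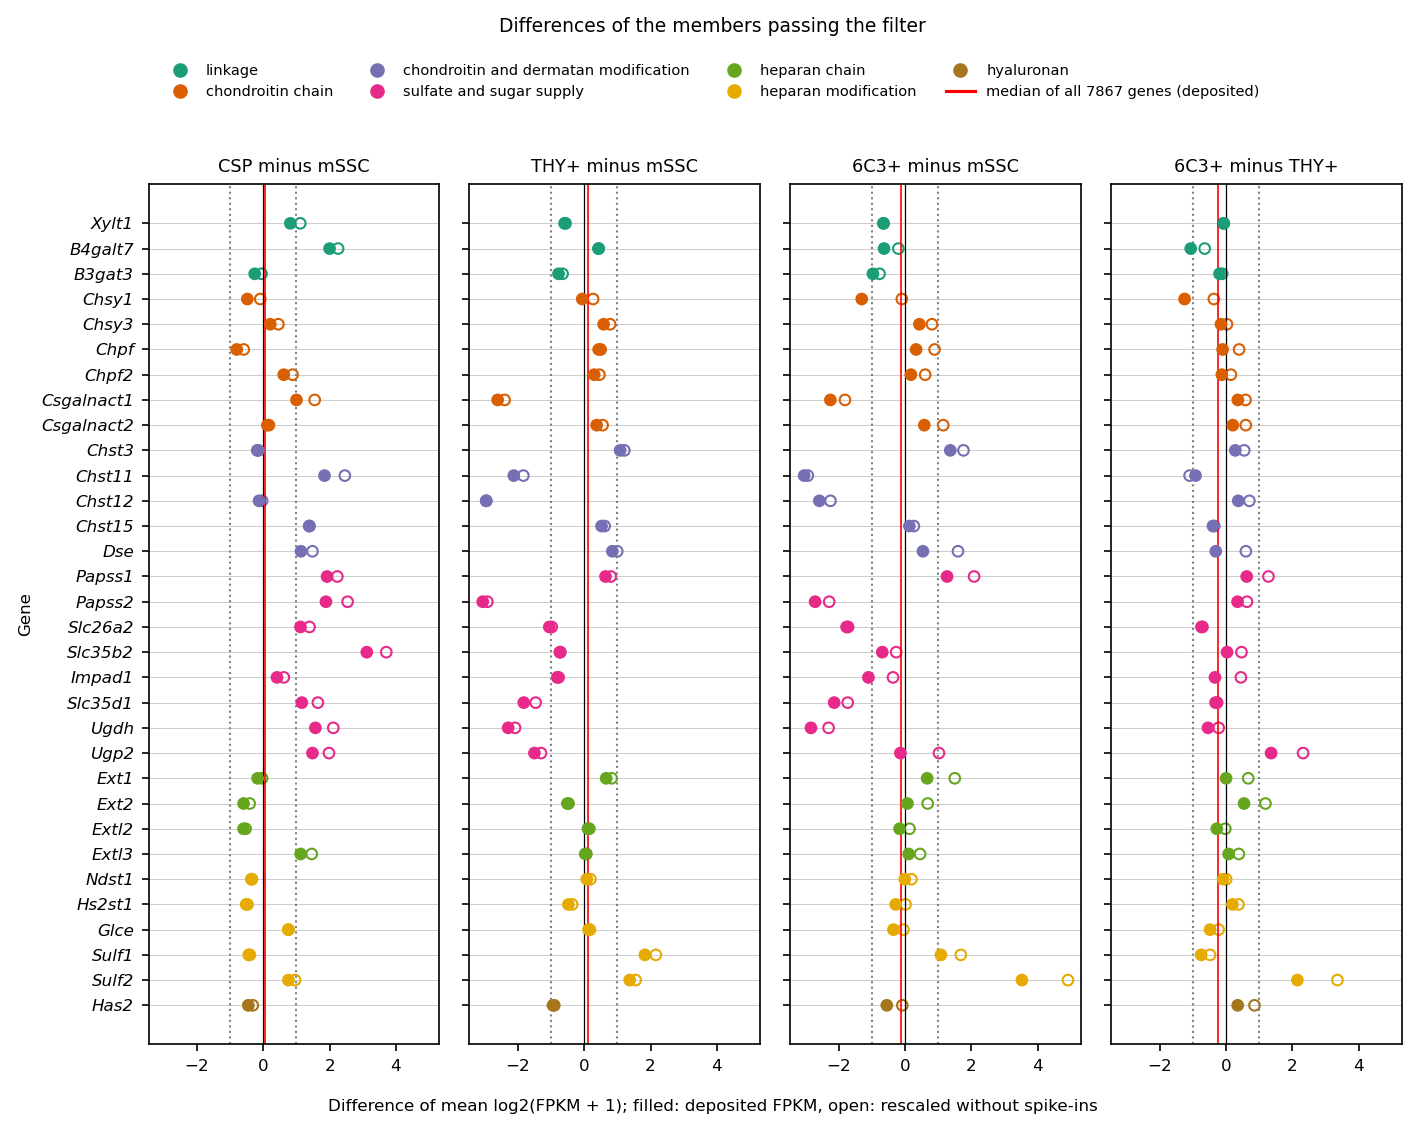
Difference of mean log2(FPKM + 1) for the 32 members that passed the filter in each of the 4 comparisons, coloured by role, on the deposited scale (filled) and after rescaling without spike-ins (open). Dotted lines mark the size rule of 1 and the red line the median of all 7867 genes; supply genes lie right of 0 in CSP minus mSSC, and Sulf2 reaches 3.52 in 6C3+ minus mSSC.

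Counted per cell, CSP cells held the most members. Of the 40 genes the lowest, median and highest counts were 3, 10 and 18 in mSSC, 8, 17 and 22 in CSP, 2, 9 and 26 in THY+ and 5, 10 and 25 in 6C3+ cells. The ranges overlapped throughout. Of the 8 supply genes the median cell held 4 in mSSC, 6 in CSP and 3 in both THY+ and 6C3+ cells. Of 13 chondroitin and dermatan genes it held 4, 6, 3 and 3.50 in the order mSSC, CSP, THY+ and 6C3+, and of 13 heparan genes 2, 2, 3 and 3. A count of this kind moves with the number of genes detected in the cell, and per 1000 detected genes the median over all 40 members was 3.99 in mSSC, 4.94 in CSP, 3.26 in THY+ and 3.93 in 6C3+ cells.

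As a summed level, which is per length and so comparable between genes, the supply genes took a median of 895.4 per 1000000 of mouse FPKM in mSSC, 1426 in CSP, 170.04 in THY+ and 558.2 in 6C3+ cells. The 13 chondroitin and dermatan genes took 961, 1121, 674.2 and 671.3, and the 13 heparan genes 166.03, 66.8, 179.2 and 523.2, in the same order. The median summed chondroitin level thus exceeded the median summed heparan level in every population, by the least in 6C3+ cells. These medians were taken separately, so they need not come from the same cell. In 6C3+ cells the 8 heparan modification genes, Sulf1 and Sulf2 among them, took a median of 341 and the 5 heparan chain genes 48.4. Single THY+ cells ranged from 0 to 10255 (chondroitin) and from 0 to 2318 (heparan).

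**Figure D4:**
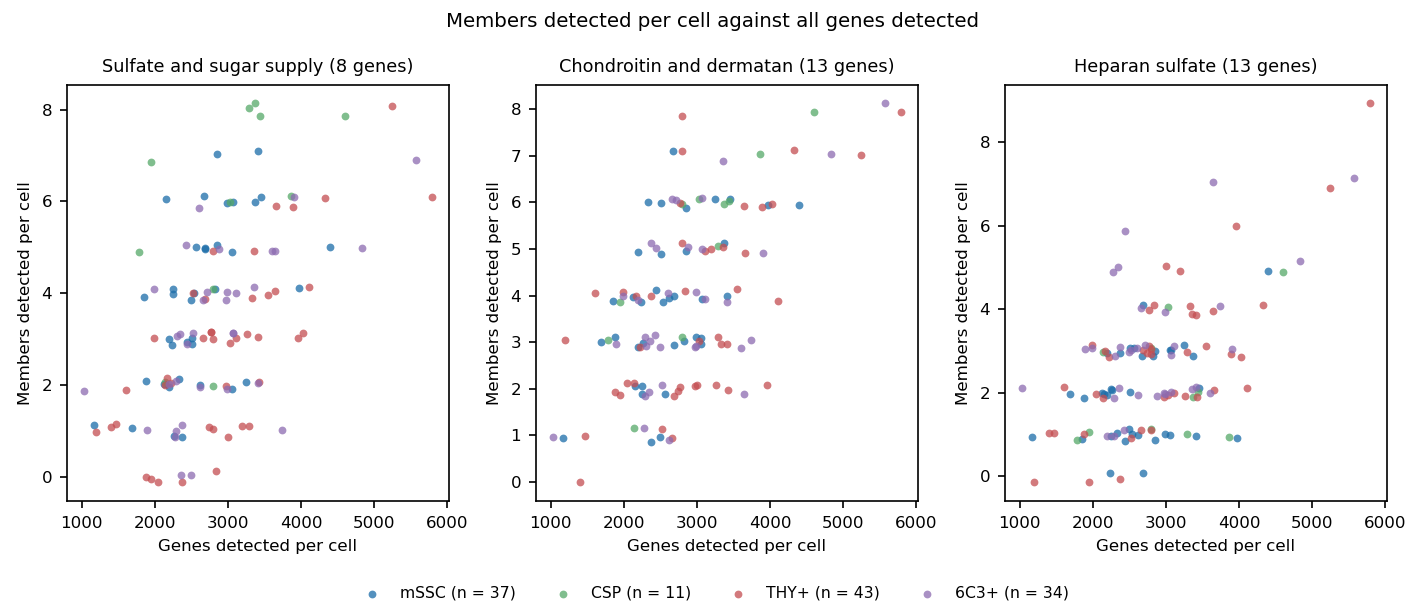
Number of members detected in each cell (vertical, spread slightly for sight) against all genes detected in it (horizontal) for 3 roles; each point is 1 cell with at least 1000 genes, coloured by population. All 8 supply genes are found in 4 CSP cells and 1 THY+ cell, and the cells with the most heparan genes are THY+ and 6C3+ cells with many detected genes.

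Other genes of the pathway, listed separately from the 40, were read the same way. Of 7 further linkage and chondroitin genes, 4 passed the filter. Fam20b, the kinase that phosphorylates the linkage xylose, like Papss2, was most frequent in CSP and least in the stromal populations: 17 of 37 mSSC cells, 9 of 11 CSP cells, 9 of 43 THY+ cells and 4 of 34 6C3+ cells, with differences from mSSC of 2.03 in CSP, -1.51 in THY+ and -2.14 in 6C3+ cells. Pxylp1, the phosphatase that acts against Fam20b, was also higher in CSP (1.42). Chst14, a dermatan 4-O-sulfotransferase, was higher than mSSC in THY+ (1.21, 10 of 43 against 2 of 37 cells) and Dsel, an epimerase, in 6C3+ cells (1.28, 11 of 34 against 3 of 37). Of 10 further heparan genes 3 passed the filter and none passed the size rule. Of 8 further hyaluronan genes 3 passed, and the receptor gene Cd44 was higher than mSSC in THY+ (3.41, 29 of 43 cells) and 6C3+ cells (1.43, 16 of 34), while Tmem2, a cell surface protein linked to hyaluronan breakdown, was lower in CSP (-1.19). Of 15 genes that break these chains down 11 passed. Hexa (-1.56, -2.46 and -2.26) and Idua (-1.59, -1.55 and -1.78), which encode lysosomal hydrolases, were the 2 below mSSC by the size rule in CSP, THY+ and 6C3+ cells. None of the 11 was above it. Of all genes 10.5%, 10.6% and 14.8% were lower and 15.7%, 10.7% and 4.89% higher in these comparisons, which share the mSSC cells. Of 7 keratan sulfate genes, 3 passed, and B4galt1, a galactosyltransferase, was lower than mSSC in CSP (-1.84) and 6C3+ cells (-1.44, but -0.11 after rescaling).

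Of 18 core protein genes, which carry the chains, 17 passed the filter. Against mSSC 3 were higher and 3 lower in CSP (all genes 15.7% and 10.5%), 3 and 8 in THY+ (10.7% and 10.6%) and 3 and 8 in 6C3+ cells (4.89% and 14.8%). After rescaling these were 6 and 3 (all genes 21.3% and 8.61%), 3 and 7 (14.1% and 9.32%), and 4 and 5 (16.1% and 6.61%). Acan, the aggrecan gene, was found in 36 of 37 mSSC cells, 11 of 11 CSP cells, 25 of 43 THY+ cells and 26 of 34 6C3+ cells, and its differences from mSSC were -4.31 in THY+ and -4.06 in 6C3+ cells. Vcan, which encodes versican, a chondroitin sulfate proteoglycan of loose connective tissue, had the opposite order with 7 of 37 mSSC cells, 0 of 11 CSP cells, 34 of 43 THY+ cells and 22 of 34 6C3+ cells and differences of 3.87 and 2.47. Sdc4, a heparan sulfate syndecan, was found in 37 of 37 mSSC cells, 11 of 11 CSP cells, 33 of 43 THY+ cells and 32 of 34 6C3+ cells and differed by -5.63 in THY+ and -3.71 in 6C3+ cells. Epyc, a small leucine-rich proteoglycan of growth plate cartilage, was found in 19 of 37 mSSC cells, 9 of 11 CSP cells, 5 of 43 THY+ cells and 2 of 34 6C3+ cells, with differences from mSSC of 1.96 in CSP, -4.2 in THY+ and -4.79 in 6C3+ cells.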

How the data were processed

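Sorted cells were sequenced one library each, with spike-in RNA, per the labels' protocols. The deposited values are FPKM computed by the authors, 1 column per cell, for 24388 genes and 92 spike-ins. The mm10 build and SAMtools are named in the submitters' processing notes. No source used here gives the aligner, the FPKM program, the annotation or any filter on cells. Columns were matched to cells by the index names in their titles, with 0 unmatched. No common step of 1 read was seen: over neighbouring pairs of cells, at most 0.459% of shared genes had the same FPKM ratio (to 3 decimals of its natural logarithm). Whole reads were thus not recovered, depth is unknown and no count model was used.

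Levels were averaged as log2(FPKM + 1) over cells with at least 1000 genes at FPKM of at least 1, and populations were compared by the difference of these means, which understates the change of low genes. Genes passed the filter at a mean share over the 4 populations of at least 10%. No test was run, since each population is 1 sample. A difference of at least 1 is a rule of size. Fully described are the members past it in at least 1 comparison, and of the other pathway genes at most 4 per list, with the largest differences. The members, lists and comparisons were chosen with earlier results of these data known. Start site sequences came from RefSeq (GRCm38.p6) and gene positions from GENCODE on mm10. Tools were scipy 1.17.1 for intervals, pandas 2.3.3 and numpy 2.4.6 for tables and matplotlib 3.10.9 for figures, under Python 3.11.15. The alternatives tried were rescaling, a pseudocount of 0.1 or 10, other cell sets, log2 of the mean and no filter.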

Additional observations from a re-analysis of the deposited data

How the results depend on the processing

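Of 41 member differences past the size rule, 11 stayed past it in the same direction under every alternative run for them. Among these were the lower values of Papss2, Csgalnact1, Chst11 and Chst12 in both stromal populations. Over the 481 values from these alternatives, 392 stayed past the rule, 72 kept their sign but fell inside it and 17 changed sign. Some of those that stayed could not move. Dropping the filter alters no difference, so its 41 values stayed by construction. The limit on spike-ins kept all 37 mSSC and 11 CSP cells, so the CSP minus mSSC values were unchanged there too.

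With all cells of the table, members higher and lower were 0 and 11 in CSP minus mSSC, 0 higher in THY+ minus mSSC, 0 and 14 in 6C3+ minus mSSC, and 0 and 1 in 6C3+ minus THY+. In the same order the medians over all genes were -0.87, -0.56, -1.03 and -0.52, beside -0.87, -0.96, -1.56 and -0.32 over members. The sign changed there in CSP minus mSSC for B4galt7 (-0.43), Csgalnact1 (-1.12), Chst11 (-0.88), Papss2 (-1.62), Slc26a2 (-0.69), Slc35d1 (-1.21), Slc35b2 (-0.25), Ugdh (-2.02), Dse (-1.30), Ugp2 (-1.21), for Papss1 in 6C3+ minus mSSC (-0.15) and for Sulf2 in 6C3+ minus THY+ (-0.0172). As log2 of the mean, the counts were 6 and 10, 8 and 16, 1 and 20, and 14 lower in the last. The medians over all genes were -0.71, 0.07, -1.11 and -1.19 there, beside -0.13, -1.0, -1.61 and -0.59 over members. The sign changed for Csgalnact1 (-0.88), Chst11 (-0.0626), Dse (-0.47) in CSP minus mSSC, Papss1 in 6C3+ minus mSSC (-0.67) and Sulf2 in 6C3+ minus THY+ (-0.0952).

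Counts that moved by over 1.5 times elsewhere follow without the shares of all genes beside them, and are not read as particular to the members. In cells matched on gene number 2 members were lower in CSP, 6 higher in THY+ and 2 higher in 6C3+ against mSSC, and 4 higher and 5 lower in 6C3+ against THY+. A pseudocount of 0.1 gave 6 higher in THY+ and 7 higher in 6C3+ against mSSC and 5 lower in 6C3+ against THY+. A pseudocount of 10 gave 4 higher in CSP, 0 in THY+ and 1 in 6C3+ against mSSC, and 1 higher and 1 lower in 6C3+ against THY+. Rescaling gave 8 higher in 6C3+ against mSSC and 4 higher and 1 lower against THY+. Outside the first index row THY+ had 1 higher against mSSC, and 6C3+ 1 lower against THY+. Chosen after seeing the data, centring on the median of all genes gave 1 lower in 6C3+ against THY+. Cells with spike-ins at no more than 20% of FPKM (19 THY+ and 19 6C3+ cells) gave 7 higher and 5 lower in THY+ against mSSC and 1 higher and 10 lower in 6C3+ against THY+. Leaving out the cells that went against their markers, also added later, left every count within 1.5 times. Where fewer cells entered, that is by the construction of the set. Otherwise the cause was not tested.

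No paired analysis was possible because each cell is its own library and no label pairs cells across populations. The number of CSP cells limits all CSP values, since 0 of 11 cells allows a share of up to 28.5%.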

Other observations

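Cells with fewer than 1000 detected genes, which enter none of the levels above, still held a few members. Among 58 such 6C3+ cells Sulf2 was detected in 7 and Ugdh in 6, the most of any member. Among 29 such THY+ cells Sulf2 was again the most frequent, in 6, followed by Ugdh in 4. Among 15 such CSP cells Chsy1, Csgalnact1, Chst11 and Papss2 were each found in 3. No mSSC cell lay under 1000 genes.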
